A study of Sus scrofa with 10 samples.

Results

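The 100 genes described here were those whose level fell most closely along the first principal component (PC1) of 10 muscle transcriptomes. They were chosen from 1513 genes that had a mean of at least 50 normalised counts in both breeds, out of 25880 genes listed and 14681 with at least 1 read. A normalised count is the number of reads counted on a gene divided by a scaling factor for the depth of the pig's library. The pigs were placed on PC1 from log2(normalised count + 1), with each gene centred on its mean but not scaled, and PC1 was oriented so that pig AL46 had a positive score. After 40 mitochondrial, ribosomal protein and NDUF symbols had been left out, the 100 genes with the lowest Pearson r to PC1 over the 10 pigs were taken from the 1473 that remained. The choice therefore used the values themselves, and every r, PC1 score and level over these pigs is given as a description, with no test. NDUFAF7 (r = -0.87) was the 1 excluded symbol whose r lay below that of the last gene taken. Of the 100 genes, 85 had a symbol and 15 were known by identifier only.

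RNA-seq was performed on the longissimus lumborum, the loin muscle, of 5 Alentejano (AL) and 5 Bísaro (BI) pigs, with 1 library per pig. All were purebred castrated males kept free range under a traditional system, given commercial feed close to appetite, and sampled at slaughter at 150 kg, a weight that the labels assign to the carcass and the methods to the live animal. AL is a slow-growing, fat local breed of southern Portugal, BI is a leaner breed of the north, and no treatment or transgene separated the groups, so that breed was the only labelled difference. Each sample was whole muscle, in which fewer cells of a type and less RNA per cell cannot be told apart.

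Between 2298045 (AL44) and 3343194 (BI25) reads were counted on genes, and a count of 3 reads corresponded to 2.47 to 3.39 normalised counts. Among skeletal muscle genes, ACTA1 (skeletal actin) had a mean of 12496 normalised counts and TNNT3 (fast troponin T) 10732. The highest mean of any tested gene was 337001. The leukocyte gene PTPRC had a mean of 0.316, the collagen gene COL1A1 21.6, the globin gene HBB 2.18 and the fat cell gene ADIPOQ 0.284. The libraries were strand-specific, but the strand setting of the counting step is not given in the sources used here. Reads of a gene and of a neighbour on the opposite strand therefore cannot be told apart, and each gene is named as the deposited table names it. Some marker genes had levels unlike those of muscle, since SOX10, which marks Schwann cells, had a mean of 711 normalised counts, while CD4, LYZ and PPARG were at 0 in all 10 pigs. On PC1, BI34 stood apart from the other BI pigs and AL44 had the lowest score of all 10 pigs. The choice of genes and the breed comparison are also given without each of them. Spreads, ranges, ratios and correlations between genes were not repeated without them.

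Principal component analysis replaces many correlated measurements with a few axes, of which the first carries the largest share of the variance. A gene that falls along the axis is high in the pigs at one end and low in those at the other. By their names, many of the genes taken act in housekeeping processes, among them splicing, translation, mismatch repair, protein degradation, vesicle transport and pyruvate oxidation. Such processes run beside the contractile machinery in every muscle fibre, and the genes taken do not stand for the whole of any of them.

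PC1 carried 36.4% of the variance between pigs and PC2 13.7%. The PC1 scores of the AL pigs were -13.9 (AL44), 10.5 (AL46), 0.42 (AL49), 2.03 (AL52) and 15.5 (AL63). Those of the BI pigs were -7.19 (BI25), 9.66 (BI34), -8.06 (BI36), -3.02 (BI37) and -5.94 (BI42). AL pigs thus held both ends of the axis, and 4 of 5 BI pigs lay on its negative side. The r of the 100 genes to PC1 ran from -0.97 for RNF139 to -0.85 for TOM1L1, with a median of -0.90, and 788 of the 1513 genes had an r below 0.

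**Figure D1:**
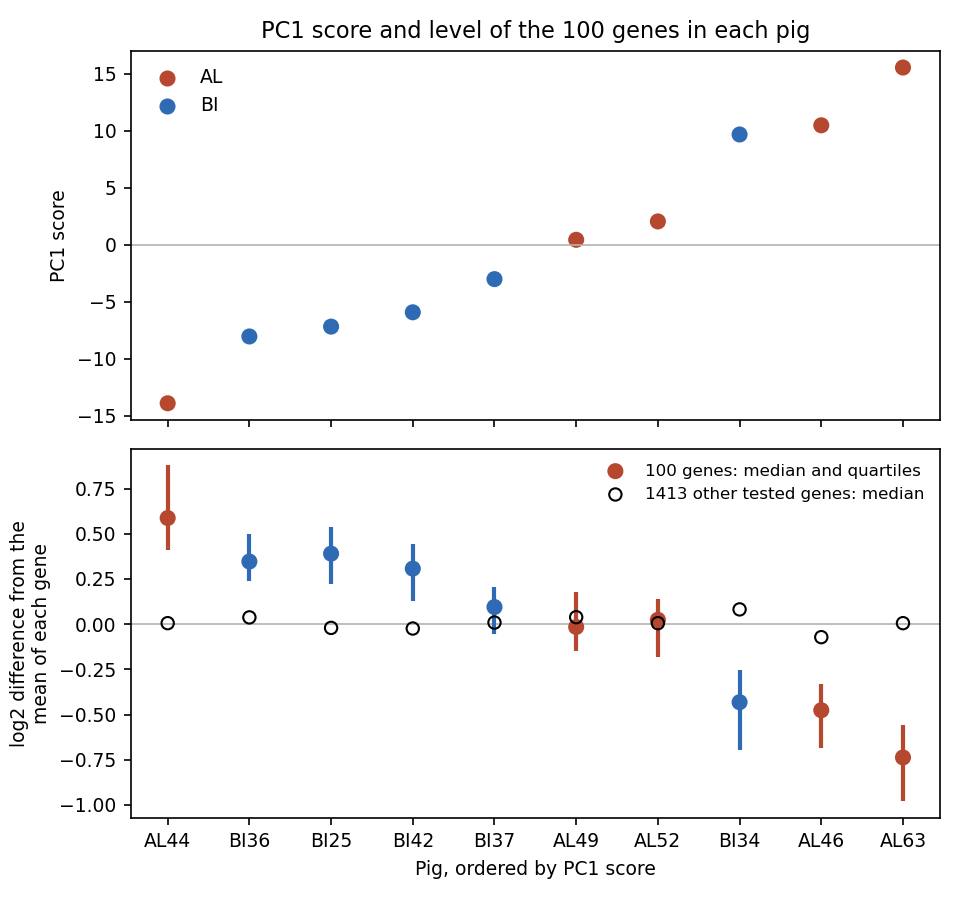
PC1 score of each pig (upper panel) and log2 difference from the mean of each gene over the 10 pigs (lower panel), with pigs ordered by PC1 score and coloured by breed. Filled points with lines are the median and quartiles of the 100 genes and open points the median of the 1413 other tested genes; the 100 genes go from a median of 0.59 in AL44 to -0.74 in AL63, while the others stay between -0.07 and 0.08.

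The median log2 difference of the 100 genes from their own means was 0.59 in AL44, 0.39 in BI25, 0.35 in BI36 and 0.31 in BI42. It was near 0 in BI37 (0.09), AL52 (0.02) and AL49 (-0.02), and it was -0.43 in BI34, -0.48 in AL46 and -0.74 in AL63. All 100 genes were above their own mean in AL44, and none was in AL46 or AL63. BI34 had 1 gene above its mean, against 99 in BI25, 97 in BI36 and 93 in BI42. AL44 was the highest pig for 66 of the genes and AL63 the lowest for 73. The genes took 2.08% of the counted reads in AL44 and 0.730% in AL63, and their median normalised count was 212 in AL44 and 80.3 in AL63.

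**Figure D2:**
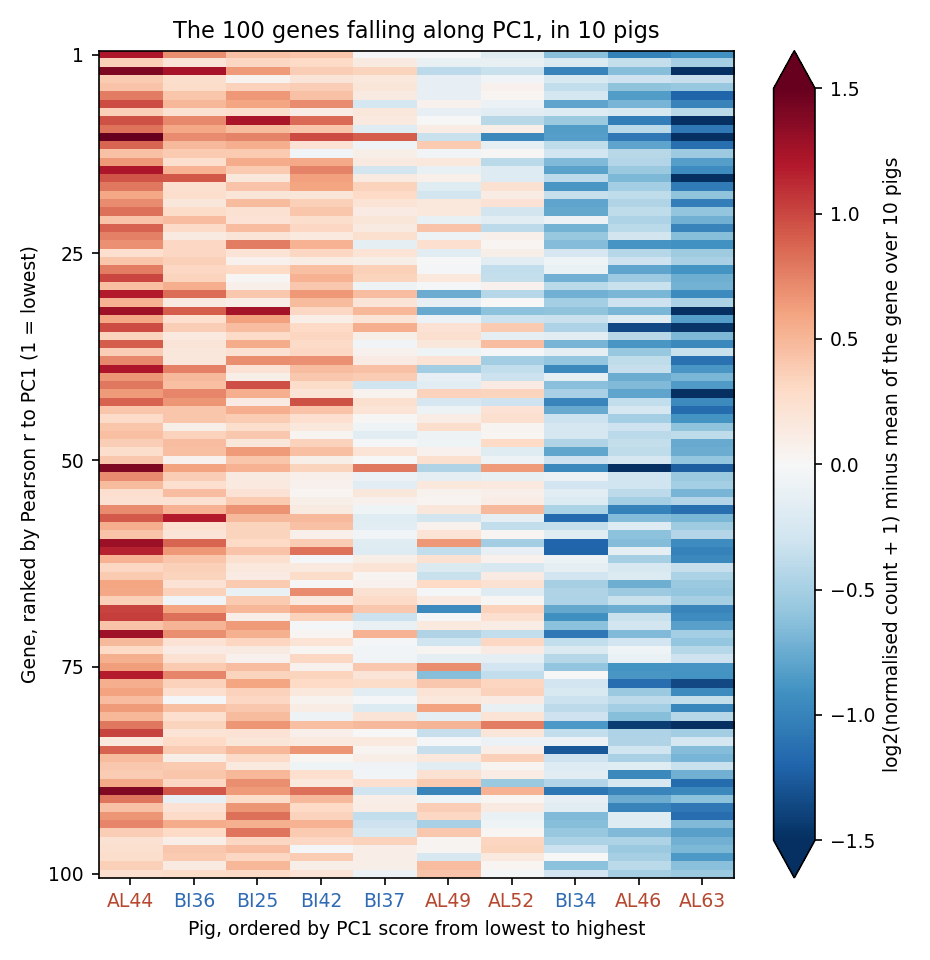
Log2 difference from the mean over 10 pigs for each of the 100 genes (rows, ranked by r to PC1) in each pig (columns, ordered by PC1 score; label colour gives the breed), with the colour scale limited to -1.5 and 1.5. Red turns to blue from left to right in nearly every row, with AL49 and AL52 mixed: 48 and 53 of the genes were above their mean there.

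The genes varied more than others of the table. Their highest value over the 10 pigs was a median of 2.82 times their lowest (range 1.63 to 11.8), against 1.95 for the other tested genes. The SD of log2(normalised count + 1) had a median of 0.49 in the 100 genes and 0.31 in the others. The ratio of AL44 to AL63 had a median of 2.69, was above 2 for 74 genes and above 4 for 22, and had a median of 0.99 in the other tested genes. Pairs of the 100 genes had a median r of 0.83 over the 10 pigs (range 0.52 to 0.99) and pairs of other tested genes 0.02, which describes the choice and carries no test.

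Each pig was also left out of the choice in turn. From the other 9 pigs, between 75 (without AL44) and 92 (without AL52) of the 100 genes were found again. The pig left out was then read on the 100 genes that fell along PC1 of the other 9. Their median log2 difference from those 9 was 0.46 in AL44, 0.38 in BI25, 0.36 in BI36 and 0.32 in BI42. The same value was -0.41 in BI34, -0.42 in AL46 and -0.69 in AL63, and lay between -0.02 and 0.10 in AL49, AL52 and BI37. All tested genes had medians between -0.12 and 0.07. Each pig was thus read on a different set, which shared 75 to 92 genes with the 100 described here. By these medians the pigs came in the same order as on those 100 genes. The sets overlapped and came from the same pigs, so this order is a description without a test.

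Some other measures also differed between pigs at the ends of the axis. The 10 most abundant genes took 48.5% of the reads in AL44, the lowest share, and 60.3% in BI34, the highest, but 55.8% in AL63 and 57.7% in BI25. Genes with at least 1 read numbered 10154 in AL44, 9257 in AL63 and 9112 in BI34, and were most numerous in BI25 (10308). The endothelium marker list, of which 16 genes were paired and none was at 0 in every pig, summed to 1588 to 3035 normalised counts in AL and 1817 to 3010 in BI. It was lowest in AL44 and highest in AL63, and EGFL7 alone made up 92.0% of it. Along the axis it mostly rose, with 1817 to 2046 in BI36, BI25 and BI42 and 2342 to 2488 in BI37, AL49 and AL52. It was 3010 in BI34 but 2183 in AL46. The list of smooth muscle and pericyte markers (14 genes, none at 0 in every pig) summed to 860 to 1971 in AL and 1432 to 2656 in BI, lowest in AL44 and highest in BI34, and DES, which skeletal fibres also express, made up 80.8%. The smooth muscle list was 1960 in AL63, 1971 in AL46 and 1266 to 1841 in BI36, BI25, BI42, BI37, AL49 and AL52. The part of these measures in the pattern was not tested. With library totals taken without the 10 most abundant genes, 95 of the 100 genes were chosen again.

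RNF139 (ENSSSCG00000024412), a ubiquitin ligase of the endoplasmic reticulum membrane, had the lowest r. Its normalised counts were 160.5, 33.5, 68.0, 60.5 and 36.2 in AL44, AL46, AL49, AL52 and AL63, and 93.9, 44.1, 112, 68.1 and 91.9 in BI25, BI34, BI36, BI37 and BI42. AL44 stood above every other pig, AL46 and AL63 were the lowest, and the breeds overlapped. PDCD4 (ENSSSCG00000010627), which holds back translation initiation by binding the helicase eIF4A, varied less, with 280.4, 170.1, 203, 203 and 154 in the AL pigs and 271, 187, 249.98, 239.5 and 269 in the BI pigs, and AL63, AL46 and BI34 were its lowest pigs. SSB (ENSSSCG00000015938) encodes the La protein, which binds the ends of new RNA polymerase III transcripts. It had 144, 34.4, 41.0, 42.7 and 17.0 normalised counts in AL and 84.8, 26.4, 128, 68.1 and 69.7 in BI, an 8.46-fold range between AL44 and AL63. PDHB (ENSSSCG00000025881), the beta subunit of pyruvate dehydrogenase, had 381, 232, 265, 281 and 227 in AL and 301, 246, 348, 323 and 332 in BI, and its range was 1.68-fold. The same pigs were high and low for a gene that changed little and for one that changed several times over. This follows from the choice by r, which does not depend on the size of the change.

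The promoters of these 4 genes with a symbol and the lowest r are shown because the levels of these genes moved together over the pigs. Each is the 250 bases before the gene start in RefSeq (Sscrofa11.1), 5′ to 3′ on the strand of the gene, with matches to the motifs listed after them in capitals. RNF139 lies at chr4:15182521-15182770 on the minus strand, PDCD4 at chr14:121271574-121271823 on the plus strand, SSB at chr15:76088337-76088586 on the plus strand and PDHB at chr13:40167503-40167752 on the minus strand.
RNF139: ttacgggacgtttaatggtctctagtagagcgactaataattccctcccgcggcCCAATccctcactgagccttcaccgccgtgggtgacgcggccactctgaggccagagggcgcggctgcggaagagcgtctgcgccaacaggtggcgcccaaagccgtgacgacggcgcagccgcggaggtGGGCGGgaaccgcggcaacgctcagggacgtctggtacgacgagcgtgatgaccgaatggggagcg
PDCD4: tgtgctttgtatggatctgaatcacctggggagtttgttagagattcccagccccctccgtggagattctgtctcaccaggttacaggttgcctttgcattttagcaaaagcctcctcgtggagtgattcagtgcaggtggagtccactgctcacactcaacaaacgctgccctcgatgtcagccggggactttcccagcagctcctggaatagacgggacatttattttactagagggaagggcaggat
SSB: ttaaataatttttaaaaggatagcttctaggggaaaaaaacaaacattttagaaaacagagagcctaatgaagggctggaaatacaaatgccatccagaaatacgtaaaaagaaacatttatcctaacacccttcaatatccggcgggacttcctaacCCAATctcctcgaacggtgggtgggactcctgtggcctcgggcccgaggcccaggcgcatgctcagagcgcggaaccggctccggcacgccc
PDHB: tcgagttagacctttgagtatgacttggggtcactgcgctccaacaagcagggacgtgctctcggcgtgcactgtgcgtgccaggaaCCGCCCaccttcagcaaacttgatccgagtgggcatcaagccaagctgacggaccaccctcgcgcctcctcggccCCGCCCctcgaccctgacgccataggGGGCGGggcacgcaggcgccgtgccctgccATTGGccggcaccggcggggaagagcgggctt

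In these windows RNF139 held 1 CCAAT box and 1 GC box, SSB 1 CCAAT box, PDHB 1 CCAAT box and 3 GC boxes, and PDCD4 no match. On either strand, the GC box GGGCGG was in 60.2% of 83 promoters of the 100 genes, 57.8% of 1080 promoters of other tested genes and 53.1% of 13492 promoters of all listed genes. The CCAAT box (CCAAT) was in 42.2%, 31.9% and 31.8% of them, and the TATA box TATAAA in 7.23%, 6.57% and 7.98%. The E-box CACGTG was in 3.61%, 7.13% and 6.96%, the cyclic AMP response element TGACGTCA in 1.20%, 2.13% and 2.06%, the ETS site CCGGAAGT in 6.02%, 5.65% and 3.29%, and the NRF1 site in 1.20%, 1.48% and 0.867%. A CCAAT box stood in 35 of the 83 promoters, the largest gap to the other tested genes among the 7 motifs, and these shares were not tested.

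The rest of the 10 genes with the lowest r included LRRC39, BCS1L, MNS1 and GLIPR1. LRRC39 (ENSSSCG00000006867), a protein of the sarcomere M-band, had 109.5, 35.3, 58.3, 64.9 and 27.1 normalised counts in AL and 100.5, 52.9, 85.3, 70.2 and 86.6 in BI. BCS1L (ENSSSCG00000035775) places the iron-sulphur protein into respiratory complex III, and had 366, 245, 262, 255 and 216 in AL and 343, 251, 336, 322 and 309 in BI. MNS1 (ENSSSCG00000004601), a filament protein of motile cilia and flagella, had 247, 61.4, 127, 95.2 and 33.9 in AL and 297, 85.9, 209, 140.3 and 230.3 in BI. AL63, AL46 and BI34 were the 3 lowest pigs for each of these genes, and only MNS1 had its highest value outside AL44, in BI25. GLIPR1 (ENSSSCG00000000519), a secreted protein of the CAP family, ran from 64.5 in AL63 to 241 in AL44. ENSSSCG00000033573 ran from 213 in AL46 to 434 in AL44, and ENSSSCG00000012640 from 28.3 in AL63 to 115 in AL44.

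**Figure D3:**
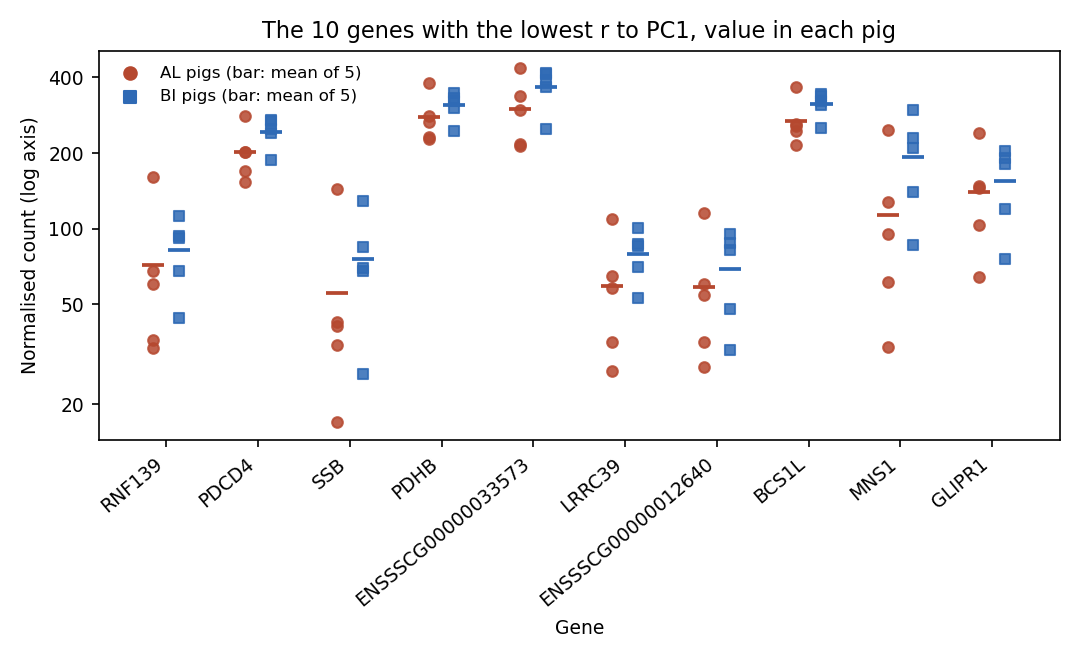
Normalised counts (log axis) of the 10 genes with the lowest r to PC1 in each AL pig (red circles) and BI pig (blue squares), with bars at the breed means. The breeds overlap in all 10 genes, an AL pig is the lowest in each, and AL44 is the highest in 9 of them.

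The genes were then sorted by what the proteins of their names do, a grouping made after the values were seen. It takes each count as reads of the named gene and not of an opposite-strand neighbour, which was not tested. Of the genes, 9 act on RNA and translation, and their ratio of AL44 to AL63 had a median of 2.28 (range 1.60 to 8.46). Besides SSB and PDCD4 these included CPEB4, which binds polyadenylation elements of cytoplasmic mRNAs, with 183, 46.5, 44.2, 48.9 and 24.9 normalised counts in AL and 180.4, 49.6, 143, 107 and 94.01 in BI. AL44 stood above the other AL pigs, which were all below 50, and BI34 was the lowest BI pig. EIF2AK4, the GCN2 kinase that senses lack of amino acids, was abundant, at 956 (AL46) to 1604 (AL44) in AL and 1187 (BI34) to 1788 (BI25) in BI. SON, a splicing factor of nuclear speckles, ran from 96.1 in AL63 to 219 in AL44. METTL5, which methylates ribosomal RNA, ran from 39.6 in AL63 to 161 in AL44.

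The 9 genes of DNA replication, repair and mitosis had AL44 to AL63 ratios of 2.22 to 5.75 (median 2.91). MSH6, which recognises mismatched bases, had 1036, 531, 829, 954 and 459 normalised counts in AL and 906, 600.3, 791, 795 and 758 in BI. AL63 was the lowest of all pigs and BI34 the lowest BI pig. OIP5, a centromere protein that helps load the centromeric histone, split the AL pigs most widely, with 1132, 932 and 1115 in AL44, AL49 and AL52 but 243 in AL46 and 197 in AL63. In BI it was 359 in BI34 and 821 to 1031 in the other 4. The group also included ABRAXAS1, DONSON, KNTC1, ORC4, RECQL and REV1.

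The 8 genes of chromatin and transcription had a median ratio of 3.2099 (range 2.22 to 6.19) and low levels, with means of 58.2 to 180 normalised counts. ACTL6A, an actin-related subunit of chromatin remodellers, had 188, 87.4, 133, 89.8 and 66.7 in AL and 176, 74.9, 142, 131 and 177 in BI. NFE2L2, the transcription factor NRF2 of the oxidative stress response, had 109.5, 41.8, 51.8, 63.2 and 27.1 in AL and 56.8, 27.5, 94.8, 42.1 and 67.6 in BI. Both had AL63 as the lowest pig and AL44 as the highest. The others were CCAR2, CCNH (cyclin H of the CDK-activating kinase), EDRF1, HIRIP3, NFE2 and TAF5 (a subunit of TFIID).

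Among 6 genes of ubiquitin and SUMO pathways, KLHL3, a substrate adaptor of cullin 3 ligases, had the highest mean of all 100 genes. Its normalised counts were 6338, 4928, 5339, 5651 and 3843 in AL and 5672, 4464, 5624, 5025 and 5286 in BI, a 1.65-fold range. USP44, a deubiquitinase, had 1232, 453, 1173, 999 and 432 in AL and 1439.8, 809.6, 1052, 977 and 1119 in BI. AL46 and AL63 were the 2 lowest pigs for USP44, and AL63 and BI34 for KLHL3. KLHDC2, RNF139, SENP5 (a SUMO protease) and USP42 completed the group, whose ratios of AL44 to AL63 ran from 1.65 to 4.43. RefSeq lists USP42 of the pig as a long non-coding RNA gene, so it was placed here by its symbol only.

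The 8 mitochondrial genes had the smallest variation, with a median SD of log2 of 0.29 and a median ratio of AL44 to AL63 of 1.83 (range 1.58 to 3.37). COX6A1, a subunit of cytochrome c oxidase, had 1934, 1168, 1448, 1298 and 1030.4 normalised counts in AL and 1511, 1380.1, 1859, 1541 and 1562 in BI. IDH3B, a subunit of the NAD-dependent isocitrate dehydrogenase of the TCA cycle, had 1054, 695, 638, 873 and 579 in AL and 871, 659.8, 1014, 823 and 975 in BI. AL44 was the highest and AL63 the lowest pig for both. PRELID1, which carries phosphatidic acid to the inner membrane, had the narrowest range of the 100 genes, from 368 in AL63 to 597 in BI36 (1.63-fold). ARMC10, CEBPZOS and YARS2, the mitochondrial tyrosyl-tRNA synthetase, belonged to this group as well.

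Membrane trafficking was represented by 6 genes with ratios of 1.75 to 5.55. SPG11, needed for the renewal of lysosomes, had 1963, 1130.4, 1737, 1899.9 and 864 normalised counts in AL and 2095, 1282, 2139, 1628 and 1902 in BI. AKTIP ran from 29.4 in AL63 to 163 in AL44 and RABEP1, an effector of RAB5 on early endosomes, from 26.4 in BI34 to 152 in AL44. The 6 genes of microtubules, centrosomes and cilia (CCDC66, CEP68, CEP95, CFAP36, KIF2A and MNS1) had the highest median ratio of the groups, 3.85, although KIF2A, a kinesin that shortens microtubules, had one of 1.79. The 6 transporters and channels, among them CLCN3, SERINC4, SLC18A2, SLC2A12 and TFRC, had ratios of 1.78 to 2.24. TFRC, the transferrin receptor that takes up iron, had 132, 59.5, 84.2, 108 and 69.0 in AL and 130.1, 74.9, 111, 107 and 88.7 in BI.

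The 7 kinases, phosphatases and adaptors (CDKL1, PPP2R3C, PRKD3, RIPOR1, SH2B3, SH3BP5 and TSSK3) had ratios of 1.93 to 4.59. BAK1, which permeabilises the mitochondrial outer membrane in apoptosis, ran from 24.2 in BI34 to 126 in AL44, and FICD, which modifies the chaperone BiP, from 95.01 in AL63 to 252 in AL44. Of the 4 genes of the cell surface and matrix (CD302, COL17A1, FCGR1A and SCUBE3), FCGR1A, the high-affinity IgG receptor of monocytes and macrophages, varied most. It had 174, 20.5, 47.5, 102 and 27.1 in AL and 94.7, 33.0, 99.99, 114 and 82.4 in BI. The list of 21 macrophage and leukocyte markers summed to 923, 875, 770.3, 791 and 788 normalised counts in AL and 797, 855, 1066, 881 and 901 in BI. AL46, the lowest pig for FCGR1A, was thus above AL52 and BI25 on this list, of whose sum CORO1A made up 51.2% and CSF1R 32.0%. In every pig 5 genes of the list (CD3E, CD4, FCER1G, LAPTM5 and LYZ) were at 0. The other 14 genes with a symbol, of mixed or little-known function, had ratios of 1.34 to 4.54 and included CNP and LENG9. The 15 genes without a symbol had means of 57.0 to 941 and ratios of 1.82 to 11.8, the latter for ENSSSCG00000031307, the gene with the largest spread, at 321 in AL44 and 27.1 in AL63.

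The members just inside the threshold were DHX32 (r = -0.851), SLC2A12 (r = -0.849) and TOM1L1 (r = -0.849), and the genes just outside it were GLIS2 (r = -0.845), CCDC38 (r = -0.845) and ENSSSCG00000032254 (r = -0.844). The r values thus passed the threshold without a gap.

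The breeds were compared to ask whether genes that follow the axis also differ between AL and BI, since the choice used the breeds only through the minimum mean of 50 in each. No gene passed the test (limma, adjusted p under 0.05, Benjamini-Hochberg over 1513 genes), so that 0 of the 100 genes and 0% of all tested genes were called. At an unadjusted p under 0.05, 1 of the 100 genes and 112 of all 1513 (7.4%) passed in limma. DHX32, the RNA helicase with the lowest p of the 100, had 169, 99.5, 119, 156 and 76.9 normalised counts in AL and 175, 141, 184, 150.3 and 184 in BI. Its log2 fold change of AL against BI was -0.47 with a standard error of 0.21 (adjusted p = 0.651, limma). DESeq2 on recovered reads called 16 genes (1.06%), of which 0 were among the 100, and limma-voom and edgeR called 0 of 1513. At an unadjusted p under 0.05, 0 of the 100 genes passed in any of these 3 tools, against 8.79% of all tested genes in DESeq2, 7.34% in limma-voom and 7.67% in edgeR. The 100 genes were chosen for following 1 axis with AL pigs at both ends. Their low counts in these tests follow in large part from that choice and are no separate result about the genes. The lowest adjusted p of the 100 genes was 0.594 in DESeq2.

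The log2 fold change of AL against BI was below 0 for each of the 100 genes, with a median of -0.26 (range -1.002 to -0.003), against a median of -0.05 for all tested genes. The 100 genes were taken for moving together along an axis on which 4 of 5 BI pigs lay on one side, so their signs are not separate observations. On arithmetic means 93 genes were higher in BI and 7 in AL, where 55.3% of all tested genes were higher in BI. The breeds overlapped in each of the 100 genes, which were chosen on an axis with AL pigs at both ends, while they did not overlap in 1.45% of all tested genes. The standard error had a median of 0.28 log2 units in the 100 genes and 0.19 in the others.

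**Figure D4:**
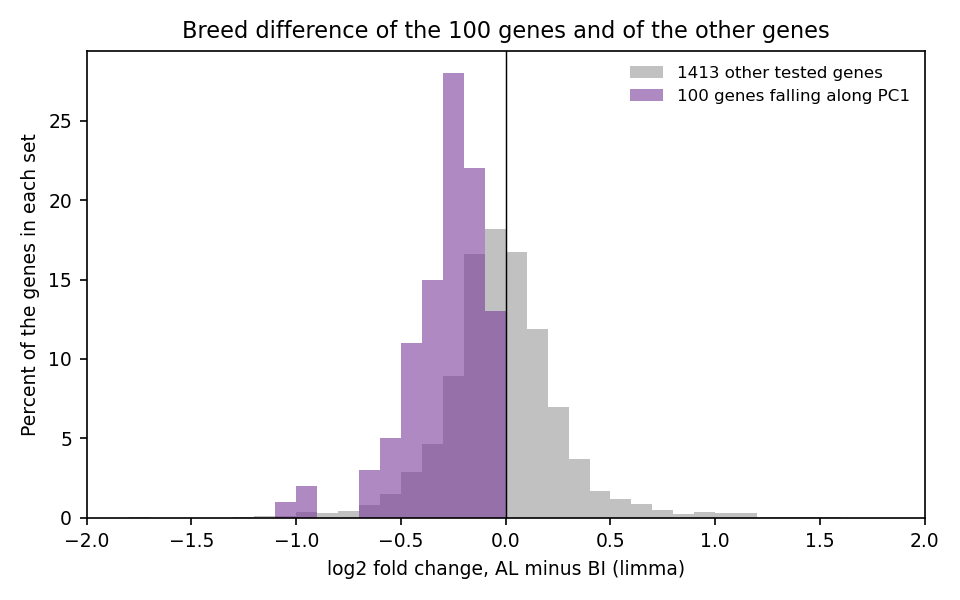
Distribution of the limma log2 fold change of AL against BI, in bins of 0.1, as a percent of the 100 genes (purple) and of the 1413 other tested genes (grey). The 100 genes all lie below 0, with a median of -0.26, and the other genes centre on -0.03.

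The largest differences among genes with a symbol were those of MNS1 (-0.95 ± 0.47 SE, adjusted p = 0.682, limma) and CPEB4 (-0.95 ± 0.47 SE, adjusted p = 0.682, limma). Mean MNS1 was 113 ± 82.9 normalised counts in AL and 193 ± 81.8 in BI (SD, n = 5 each), so that the difference was smaller than the SD within either breed. KLHL3 had means of 5219.8 ± 926 in AL and 5214 ± 495 in BI (SD, n = 5 each) and a log2 fold change of -0.01. The result turned on single pigs. The median log2 fold change of the 100 genes was -0.40 without AL44 and -0.40 without BI34, -0.16 without AL46 and -0.11 without AL63. Without AL44 only 84 of the 100 genes kept a mean of at least 50 in both breeds, so the others passed that filter only through AL44. Of the members tested, 19 of 84 (22.6%, without AL44) and 11 of 100 (without BI34) had an unadjusted p under 0.05 in limma, with 0 called after adjustment. Of all tested genes 167 of 1481 (11.3%) had one without AL44 and 146 of 1504 (9.71%) without BI34, so that 11 of 100 was close to the share of all genes in that fit.

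Within each breed the 100 genes spread more than other genes, and more so in AL. The median SD of log2 was 0.58 in AL and 0.36 in BI, against 0.31 and 0.26 for the other tested genes. In 93 of the 100 genes the SD was larger in AL than in BI, as it was in 62.3% of the other tested genes, and both ends of the axis used for the choice were AL pigs.

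A property that the choice did not use is the position of the genes. Of 84 genes with a RefSeq position, 56 (66.7%) had an exon that overlapped an exon of a gene on the opposite strand, against 47.3% of 1111 other tested genes and 17.3% of 12507 listed genes with a mean under 50. Counting whole gene bodies, 57 of the 84 (67.9%) overlapped a gene on the opposite strand, against 52.3% and 27.8%. Within 5 kb, 83 of the 84 had a gene on the opposite strand (98.8%, against 89.5% and 52.3%), and TFRC was the exception. The genes were also longer, with a median of 37377 bp against 16706 bp in the other tested genes, and of 3941 against 3214 exon bp. The part of gene length in the overlap was not tested, and these shares are descriptions without a test.

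**Figure D5:**
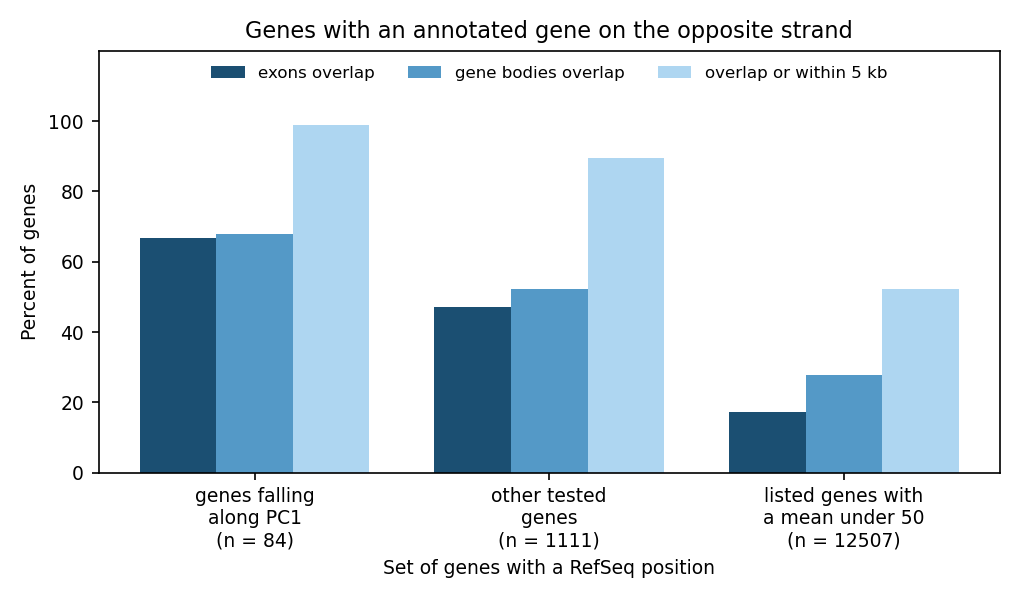
Percent of genes whose exons overlap an exon of a gene on the opposite strand (dark), whose bodies overlap one (middle) or that have one overlapping or within 5 kb (light), for the 100 genes, the other tested genes and listed genes with a mean under 50. The shares fall from left to right in each measure, from 66.7% to 47.3% and 17.3% for exons.

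RNF139 shared 198 exonic bp with TATDN1, a gene of the opposite strand with a mean of 1801 normalised counts and an r of 0.67 to PC1. LRRC39 shared 474 bp with TRMT13 (mean 1291, r = -0.18), and RABEP1 868 bp with NUP88 (mean 1487, r = -0.16). RNF149 opposite CNOT11 (mean 425, r = 0.27) and GNPTG opposite UNKL (mean 433, r = 0.11) also had higher counts than their partners among the 100. Some partners with higher counts did follow the axis, such as RASA1 opposite CCNH (mean 241, r = -0.82) and NDUFAF7 opposite PRKD3 (mean 105, r = -0.87). Of 17 tested partners with shared exons, 14 had an r below 0, with a median of -0.72, and 4 of the 17 were themselves among the 100. These 4 are SSB with METTL5 and SON with DONSON, each pair counted from both sides, and their low r follows from the choice. The r of partners of other tested genes was not taken, so these values are a description without a test. PDCD4 shared 604 bp with BBIP1, COPB2 1955 bp with MRPS22 (mean 38.6) and EIF2AK4 2172 bp with SRP14 (mean 36.4), and REV1 946 bp with the translation factor EIF5B (mean 22.1). In the last 3 cases the partner had the lower count of the pair.

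Neighbours that were both among the 100 lay at a few loci. SON (chromosome 13, 197162075 to 197193417, plus strand) and DONSON (197192661 to 197204243, minus strand), a protein of the replication fork, ran tail to tail and shared 757 exonic bp. DONSON had 717, 256, 278, 401 and 247 normalised counts in AL and 410.2, 273, 409, 351 and 373 in BI, with AL44 far above the rest. SSB (chromosome 15, 76088587 to 76099517, plus strand) and METTL5 (76097873 to 76108362, minus strand) shared 156 exonic bp. RAB1A, a GTPase of transport from the endoplasmic reticulum, and CEP68 lay tail to tail 1193 bp apart, and TAF5 and PDCD11 were 5958 bp apart on 1 strand. In all, 8 of the 84 genes (9.52%) had another of the 100 within 10 kb. Any tested gene lay within 10 kb for 27 of the 84 (32.1%), against 36.1% of all tested genes with a position. The 84 genes were 7.03% of the 1195 tested genes with a position. Chromosome 14 held 14 of them among 76 tested there (18.4%), chromosome 15 held 7 of 40 (17.5%), chromosome 16 held 2 of 11 (18.2%) and chromosome 2 held 6 of 143 (4.20%). Per kb of exon, the level of the 100 genes had a median of 44.4 normalised counts against 68.6 in the other tested genes, from 5.24 for CCNH to 2659 for COX6A1.

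Short gene lists written from general knowledge held few of the 100 genes, which were 6.61% of all tested genes. None of the 28 tested genes of the sarcomere list was among them, nor any of 18 of the list of glycolysis and glycogen, 15 of calcium and excitation, 11 of translation factors, 10 of chaperones or 8 of ubiquitin and proteasome. At that share, lists of this size hold few members or none, and the counts describe the lists and not the processes, since LRRC39, COX6A1 and BCS1L stood in none of them. In the sarcomere list 2 of 28 genes had an r below 0 to PC1 and the median r was 0.56, and in the glycolysis list 4 of 18 had one, with a median of 0.74. For translation factors the median r was 0.74 (2 of 11 below 0) and for ubiquitin and proteasome 0.06 (2 of 8). For RNA splicing and RNA binding it was 0.08 (4 of 9) and for the TCA cycle and fatty acid oxidation 0.36 (5 of 12). SON was 1 of 9 tested genes of RNA splicing and RNA binding, and IDH3B and PDHB were 2 of 12 of the TCA cycle and fatty acid oxidation. In each of these lists 0 genes were called in either direction between the breeds (limma). Tested genes with a listed gene on the opposite strand, overlapping or nearest within 5 kb, were also counted. For RNA splicing and RNA binding, 4 of 5 were among the 100 (CEP95, DONSON, NFE2 and PLPPR3). The counts were 1 of 4 for translation factors, 1 of 6 for chaperones, 0 of 6 for glycolysis and 0 of 14 for the TCA cycle list. These counts were not tested.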

How the data were processed

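Loin muscle RNA of 5 AL and 5 BI pigs gave 1 library each, grouped through the breed and animal name in the labels. Per the submitters' notes and the methods, reads were trimmed (Trim Galore 0.5.0), aligned to Sscrofa11.1 with Ensembl release 94 models (HISAT2 2.1.0, SAMtools 1.9) and counted per gene (HTSeq 0.11.1). The authors deposited signal values, namely gene counts after division by DESeq2 size factors. Deposited log2 fold changes, p-values and adjusted p-values, and the deposited scores (standard errors and Wald statistics), hold the authors' breed comparison and were not used.

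Dividing each pig's values by the smallest above 0 gave whole reads for 100% of values (tolerance 0.01). Depth is 2298045 to 3343194 reads on genes, and limits from it cover counting error only. The test was limma 3.58.1 with trend in R 4.3.3 on log2(value + 1), which understates the change of low genes, with no covariate, over the 1513 genes whose mean reached 50 in AL and in BI. Alternatives were pseudocounts of 0.1 and 10, other filters, another library total, limma-voom, DESeq2 1.42.0 and edgeR 4.0.16 (TMM) on recovered reads, unit variance, Spearman correlation and each pig left out. The fits and the choice of genes were tested on simulated data. The sources used here give no sequencing batch.

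Symbols came from a gene name table (14857 of 25880 identifiers) and positions and sequences, matched by symbol, from RefSeq (Sscrofa11.1, release 106), so that gene borders can differ from the counted models. Python 3.11.15, numpy 2.4.6, pandas 2.3.3 and matplotlib 3.10.9 were used. The genes and lists were chosen with earlier results of these data known. Genes named are the 10 members with the lowest r, the 10 with the highest mean, the 10 with the largest SD, those without overlap between breeds (none), 3 on each side of the threshold and those in a list, and further members were named after their values were seen to illustrate each role. Some members are not reported here by name. Lists besides those reported were respiratory chain, autophagy and lysosome, chromatin and transcription, growth signalling, circadian clock, stress response, dystrophin complex, adipocyte, collagen and fibroblast, erythrocyte, nerve and satellite cell genes, none of which held a member.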

Additional observations from a re-analysis of the deposited data

Results flagged for a closer look

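For PC1 and the 35 genes named by rule, the highest and lowest pig of each breed were compared with the other 4 by Dixon's ratio (limit 0.71 for 5 pigs). Of 72 such groups 10 passed, where chance gives about 1 in 20, and the genes were chosen for moving together, so that these are not independent. In BI, the PC1 score of BI34 was 9.66, against -8.06 to -3.02 in the others. AL44 stood above the other AL pigs for RNF139 (160.5 normalised counts, against 33.5 to 68.0), SSB (144, against 17.0 to 42.7), CPEB4 (183, against 24.9 to 48.9), LENG9 (139, against 30.5 to 44.5) and ENSSSCG00000031307 (321, against 27.1 to 77.7). It did so too for GLIS2 (381, against 139 to 189.9), which lies just outside the threshold. BI34 stood below the other BI pigs for CNP (720.3, against 984 to 1063), SON (115, against 166 to 179) and ENSSSCG00000031307 (55.1, against 161 to 194).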

How the results depend on the processing

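No paired analysis was possible because the breeds share no animal number. The count of genes called between the breeds, 0, was 1 with a mean of 50 or more in either breed, 1 with a sum of 50 or more in each breed, 40 with no filter and 16 with DESeq2, and 0 to 1 with 1 pig left out (1 without AL44 and 1 without BI37). The cause was not tested. Called members stayed at 0 in all 20 alternatives. Their median log2 fold change stayed below 0 in all 20, from -0.40 (without AL44) to -0.11 (without AL63), and was -0.17 with edgeR and -0.20 with DESeq2. Chosen after seeing the data were the fit without a filter for members and the medians from limma-voom and DESeq2. Members chosen again numbered 65 with at least 50 in every pig, a filter that fewer members pass, 55 with a sum of at least 50 in each breed, which admits more genes, and 75 to 92 with 1 pig left out. Of 680 values of the 35 named genes, 661 kept their sign and their side of the threshold and 19 in 5 genes changed sign. The log2 fold change of KLHL3 was 0.0228 with limma-voom, 0.0016 with DESeq2 and 0.0365 with edgeR, and that of RABEP1 was 0.0470 with DESeq2 and 0.0738 with edgeR. With 1 pig left out, GLIPR1 ran from -0.412 (without BI34) to 0.0642 (without AL63), KLHL3 from -0.0874 (without AL44) to 0.0930 (without AL63), RABEP1 from -0.398 (without AL44) to 0.159 (without AL63), SLC2A12 from -0.242 (without BI34) to 0.0706 (without AL63) and ENSSSCG00000032254 from -0.184 (without AL44) to 0.0374 (without AL63).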
